A study of Mus musculus with 25 samples.

Results

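Dazap2, Tgfbr2, Rhoc, Nr2f2, Tob2, Slain1, Pfn2, Arid4b, Arhgap29 and Klf13 are 10 genes reported elsewhere as targets of the miR-302 family, or of microRNAs with the same seed, and were followed in miR-302 knockout (KO) and wild-type (WT) mouse embryos. They were chosen by name, as every probe whose platform gene symbol is one of these 10. That gave 17 of the 25697 probes on the array. Of the 17 probes, 14 were kept, with a detection p-value below 0.05 on 3 or more arrays, and all 10 genes were measured by at least 1 of them, among 10261 genes tested. Each gene is represented below by its kept probe with the highest mean.

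RNA from mouse embryos on a B6 background was hybridised to Illumina MouseRef-8 bead arrays, 25 in all. At embryonic day 7.5 (E7.5) 3 KO and 2 WT whole embryos were compared. Anterior neural tissue was profiled at E8.0 (3 KO and 2 WT), E8.5 (3 KO and 3 WT) and E9.5 (4 KO and 4 WT). One more WT sample of the E8.0 stage carries a whole-embryo label; it stood as a group of its own and entered no E8.0 comparison unless stated. The labels give no further detail of the allele, and replicates are separate embryos per the design text.

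MicroRNAs of the miR-302 cluster are made in the epiblast and in early embryonic tissue, and pair through their seed with sites in the 3′ untranslated region of messenger RNAs, which lowers the stability or translation of those messages. Loss of such a microRNA is therefore looked for as a higher message level of its targets. The 5 hairpins of the cluster lie at chr3:127545228-127545807 on the plus strand (GRCm38.p6, RefSeq). The sequences below show the seed, bases 2 to 8 from the 5′ end, in capitals, because it defines the family to which these targets were assigned. They are RefSeq mature sequences, and miR-302a-3p is the other cluster member of this kind.

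mmu-miR-302b-3p: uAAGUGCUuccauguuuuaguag
mmu-miR-302c-3p: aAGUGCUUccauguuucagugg
mmu-miR-302d-3p: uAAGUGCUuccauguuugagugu
mmu-miR-367-3p: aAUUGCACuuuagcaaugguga
mmu-miR-291a-3p: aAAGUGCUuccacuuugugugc
mmu-miR-294-3p: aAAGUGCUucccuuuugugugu
mmu-miR-295-3p: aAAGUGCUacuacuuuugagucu

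miR-302b-3p at chr3:127545275-127545297 and miR-302d-3p at chr3:127545665-127545687 carry the same seed, AAGUGCU, as miR-291a-3p, miR-294-3p and miR-295-3p, which come from another cluster on chromosome 7 that is active in embryonic stem cells. The RefSeq miR-302c-3p starts 1 base later, so its bases 2 to 8 read AGUGCUU, although it holds the shared core AAGUGC from its first base. miR-367-3p has another seed, AUUGCAC. A message site that pairs with AAGUGCU reads AGCACUU. Target sites in the 10 messages were not searched here.

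No probe on the array is named for miR-302 or miR-367, so the knockout itself was not checked by these data. The single probe of Larp7, the gene around the cluster, was detected on 0 of 25 arrays. Between 10933 and 13612 probes were detected per array, and log2 values of replicates correlated at 0.971 to 0.996 within groups. The E9.5 arrays all came from plate 4 and had median raw signals of 222 to 262, against 107 to 148 on the earlier arrays, so the plate and the E9.5 stage cannot be told apart. At E8.5, KO replicates 2 and 3 came from plate 3, which held no WT array. KO replicate 1 and the WT arrays of that stage came from plate 2. At E7.5 and E8.0, KO replicate 1 came from plate 2 and the other compared arrays from plate 1. Genotype and plate are thus partly confounded at these stages. At E8.0, KO replicate 1 stood apart: it had the 10933 detected probes, a mean of 8.62 for 6 epiblast markers where KO replicates 2 and 3 had 7.26 and 6.99, and a mean of 6.19 for 10 neural progenitor markers, where they had 6.79 and 7.07.

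The identities of the 3 E8.0 WT arrays are uncertain. Their signal columns ranked the probes as the detection p and the authors' processed values of another replicate did: signals named replicate 1 matched replicate 3, those named replicate 2 matched replicate 1, and those named replicate 3 matched replicate 2. The other 22 arrays matched their own names. Results at E8.0 are given by the signal column names. Some are also given under the identities of the detection p and processed values, which exchange which array is the whole embryo. Calls of listed genes at E8.0 are given by the signal names only, and whether they hold under the other identities is not shown.

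Dazap2 and Arid4b were the members with a called difference between KO and WT embryos. Dazap2, which encodes a small proline-rich protein that binds the RNA-binding protein Dazl, rose in KO neural tissue at E8.0 and E8.5, by 2.21-fold and 1.99-fold. Arid4b, a subunit of the Sin3 histone deacetylase complex, fell 2.38-fold in KO tissue at E8.5. None of the other 8 genes passed at any stage.

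At E7.5, 0 of the 10 members passed the limma test across 10261 genes with Benjamini-Hochberg adjustment, which called 0.224% of all genes (0.175% higher, 0.0487% lower); at an unadjusted p under 0.05 there were 2, Dazap2 and Arid4b. At E8.0, 1 of 10 passed, higher in KO, where 1.17% of all genes were called higher, 0.507% lower and 1.68% in either direction. At E8.5, 2 of 10 passed, 1 in each direction, with 3.16% of all genes called higher, 2.44% lower and 5.59% in either direction. At E9.5, 0 of 10 passed against 2.23% of all genes (1.55% higher, 0.682% lower), and 1, Klf13, had an unadjusted p under 0.05. For the mean KO minus WT difference over the 4 stages, 2 of 10 passed, 1 in each direction, against 3.39% of all genes (2.11% higher, 1.29% lower).

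Shifts of the members as a group were small. The median KO minus WT log2 difference of the members was 0.04 at E7.5, 0.01 at E8.0, -0.01 at E8.5 and 0.04 at E9.5, beside 0.0014, 0.03, -0.03 and -0.0016 for all genes tested. At E7.5, E8.0 and E8.5, 5 of the 10 differences were above 0, and at E9.5 6 of 10.

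**Figure D1:**
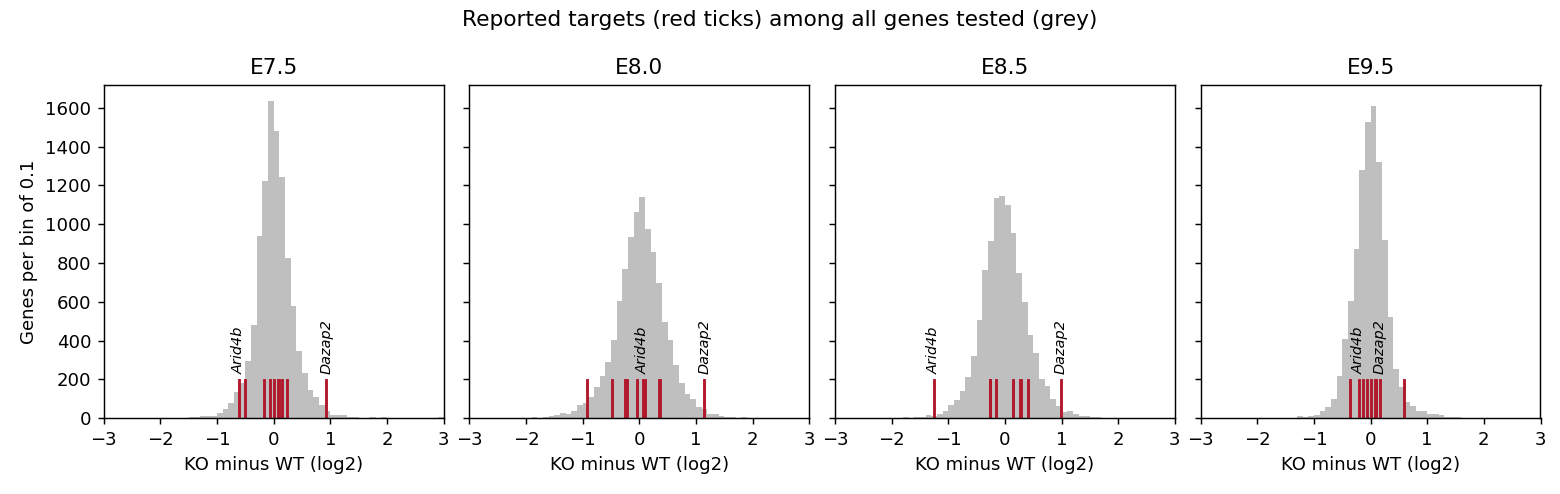
Distribution of KO minus WT log2 differences for all 10261 genes (grey bars, genes per bin of 0.1 on the log2 scale) and for the 10 reported targets (red ticks) at each stage. Most ticks lie within the bulk of the grey distribution, with Dazap2 in its upper tail at E7.5, E8.0 and E8.5 (1.15 at E8.0) and Arid4b in its lower tail at E8.5 (-1.25).

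Dazap2 was detected on all 25 arrays. Its log2 intensity at E7.5 was 9.66, 9.16 and 8.87 in KO embryos, against 8.62 and 7.99 in WT embryos. At E8.0 it was 10.05, 10.41 and 9.82 in KO tissue, against 9.12 and 8.77 in WT tissue. KO arrays lay above WT arrays at both stages, with no overlap.

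At E8.5 the Dazap2 values were 10.20, 10.58 and 10.54 in KO tissue, against 8.93, 9.70 and 9.73 in WT tissue. These groups did not overlap either. At E9.5 they were 11.23, 11.49, 11.38 and 11.65 in KO tissue, against 11.47, 11.24, 11.20 and 11.19 in WT tissue, and here the groups overlapped.

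The KO minus WT log2 difference of Dazap2 was 0.93 (SE 0.26) at E7.5, with a limma adjusted p of 0.239, and so was not called there. It was 1.15 (SE 0.26, adjusted p 0.0367) at E8.0 and 0.99 (SE 0.23, adjusted p 0.0221) at E8.5. At E9.5 the difference of 0.16 (SE 0.20, adjusted p 0.766) was within the spread between replicates, with a 95% interval of -0.26 to 0.58.

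Averaged over the 4 stages, Dazap2 was 0.81 higher in KO embryos on the log2 scale (SE 0.12, limma adjusted p 0.00153), or 1.75-fold, which placed it at the 99.8th percentile of all genes. It passed in all 40 alternative settings run, between 0.59 and 0.88, with adjusted p-values of up to 0.0143.

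The single-stage calls of Dazap2 were less firm. Under the other identities of the E8.0 WT arrays, the WT values became 8.77 and 9.76, still below the KO values, and the E8.0 difference was 0.82 with an adjusted p of 0.235. With the whole-embryo array added to the WT group it was 0.87 (adjusted p 0.103), and without E8.0 KO replicate 1 it was 1.17 (adjusted p 0.0863). The call was also lost without KO replicate 2, WT replicate 2 or WT replicate 3 (adjusted p 0.103, 0.122 and 0.235). At E8.5 it was lost without WT replicate 1, where the difference was 0.73 (adjusted p 0.128), and without KO replicate 2 or 3 (adjusted p 0.0976 and 0.0671). Among arrays of 1 plate, the difference was 0.71 at E7.5 (limma adjusted p 0.317) and 1.17 at E8.0 (adjusted p 0.0473). That E8.0 fit compares the same KO and WT arrays as the fit without KO replicate 1. At E8.5, 1 plate leaves 1 KO array, and the difference was 0.75. With plate as a covariate the call was lost at E8.0 (1.05, adjusted p 0.0791) and at E8.5 (0.75, adjusted p 0.278). At E8.0 it was also lost in the authors' processed values (0.69, adjusted p 0.224).

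**Figure D2:**
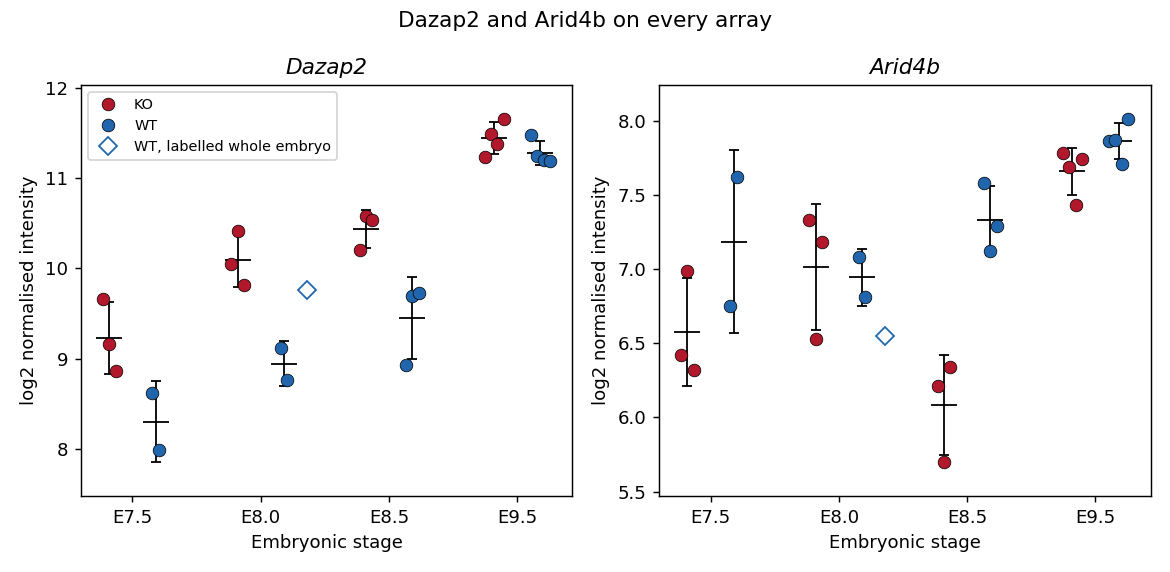
Log2 normalised intensity of Dazap2 and Arid4b on every array, by stage, with KO arrays (red) left of WT arrays (blue), the group mean (horizontal bar) and its SD (error bars). The open diamond is the whole-embryo WT array of E8.0, at 9.76 for Dazap2; KO points lie above WT points for Dazap2 through E8.5 and below them for Arid4b at E8.5.

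Markers of other tissues moved with Dazap2 at some stages, and their part in the result was not tested. For 9 listed trophoblast and placenta genes, 8 of them measured, the summed linear intensity was 3111 to 10294 in KO and 2964 to 3096 in WT embryos at E7.5, and 7583 to 12675 in KO and 4443 to 5992 in WT tissue at E8.0. The 10294 was on E7.5 KO replicate 1, and replicates 2 and 3 had 4357 and 3111. The whole-embryo WT array of E8.0, with a Dazap2 value of 9.76, had a sum of 10832. Under the other E8.0 WT identities that array is neural tissue, so the WT sums become 4443 and 10832 and overlap the KO sums. Of the 8 genes, 5 to 7 were detected per KO array and 5 per WT array at E7.5, and 6 to 8 per KO array and 5 to 6 per WT array at E8.0. All 8 had a positive KO minus WT difference at both stages, and 1 of them passed at E8.0, where 1.17% of all genes were called higher. It was Hand1, a transcription factor of trophoblast giant cells and heart (log2 difference 1.40, limma adjusted p 0.0191). At E7.5 the head mesenchyme and neural crest genes were lower in KO embryos, with sums of 2760 to 3098 against 4606 to 4735. Of these, 1 of 9 had a positive difference (median -0.35, none called). Mean log2 values at E7.5 were 9.12 to 9.40 in KO and 8.89 to 8.90 in WT embryos for epiblast genes. For surface ectoderm and epithelium genes they were 8.87 to 9.02 and 8.57 to 8.78, while the sums of these lists overlapped.

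Another list also separated the groups by its sum at E8.0. The 11 measured surface ectoderm and epithelium genes summed to 14785 to 17015 in KO and 10940 to 12718 in WT tissue, with none called. Under the other E8.0 WT identities the WT sums were 12718 and 13003. The 10 neural progenitor markers separated the groups only in their mean log2 value, 6.19 to 7.07 in KO and 7.18 to 7.23 in WT tissue. Their sums overlapped, at 2181 to 3747 in KO and 3209 to 3525 in WT tissue. None of them was called.

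At E8.5 the trophoblast list did not separate the groups. The trophoblast sum was 2576 to 4391 in KO and 2791 to 5969 in WT tissue, overlapping, while Dazap2 did not overlap. The surface ectoderm and epithelium genes summed to 10599 to 16000 in KO and 9078 to 12870 in WT tissue at E8.5, also overlapping. Of them 1, the tight junction gene Cldn3, was called higher (1.34, limma adjusted p 0.037), where 3.16% of all genes were. In bulk tissue, fewer cells of a type and less RNA per cell cannot be told apart.

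Group means of Dazap2 increased from stage to stage in both genotypes. Its mean in KO embryos was 9.23 ± 0.40 at E7.5 (SD, n = 3), 10.09 ± 0.30 at E8.0 (n = 3), 10.44 ± 0.21 at E8.5 (n = 3) and 11.44 ± 0.18 at E9.5 (n = 4). In WT embryos it was 8.30 ± 0.44 at E7.5 (n = 2), 8.94 ± 0.24 at E8.0 (n = 2), 9.45 ± 0.46 at E8.5 (n = 3) and 11.28 ± 0.13 at E9.5 (n = 4). The E8.5 minus E8.0 difference did not pass in either genotype (0.35 in KO, limma adjusted p 0.43, and 0.51 in WT, adjusted p 0.796). E7.5 also differs from the later stages in tissue, and E9.5 differs in plate, so stage cannot be told apart from these.

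Whether the knockout effect itself changed with stage was tested as a difference of differences. The Dazap2 effect at E9.5 was 0.83 lower than at E8.5 on the log2 scale, as a difference of -0.83 (SE 0.31, limma adjusted p 0.0897), which missed the threshold. Between E8.5 and E8.0 the effect differed by -0.16 (SE 0.35, adjusted p 0.927).

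Arid4b was detected on 24 of 25 arrays through its representative probe, and not on E8.5 KO replicate 2, where its detection p was 0.0564. At E8.5 its log2 intensity was 6.21, 5.70 and 6.34 in KO tissue, against 7.58, 7.12 and 7.29 in WT tissue. Every KO array lay below every WT array, although the lowest value, 5.70, is that of the array without detection; without it the difference was -1.06 (adjusted p 0.0458). The difference was -1.25 (SE 0.24, limma adjusted p 0.00612), at the 0.536th percentile of all genes.

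At the other stages the Arid4b groups overlapped. At E7.5 the values were 6.42, 6.99 and 6.32 in KO embryos, against 6.75 and 7.62 in WT embryos, a difference of -0.61 (adjusted p 0.575). At E8.0 they were 7.33, 6.53 and 7.18 in KO tissue, against 7.08 and 6.81 in WT tissue, a difference of 0.06 (adjusted p 0.92). At E9.5 they were 7.78, 7.69, 7.43 and 7.74 in KO tissue, against 7.86, 7.87, 7.71 and 8.01 in WT tissue, a difference of -0.20 (adjusted p 0.682).

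Over the 4 stages the mean difference of Arid4b was -0.50 (SE 0.12, limma adjusted p 0.031). Under the other E8.0 WT identities it was -0.43 (adjusted p 0.0635), and in the leave-one-out fits it missed the threshold without E7.5 WT replicate 2, E7.5 KO replicate 1, E8.0 WT replicate 2, E8.5 WT replicate 1 or E8.5 KO replicate 2 (adjusted p 0.0544 to 0.0919). With plate as a covariate the E8.5 difference was -1.12 (limma adjusted p 0.129). Among arrays of plate 2, which hold 1 KO array of that stage, it was -1.12. Without E8.5 WT replicate 1 it was -1.13 (adjusted p 0.05005). In the authors' processed values it was smaller in size, -0.36 (adjusted p 0.0248).

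The Arid4b effect at E9.5 differed from that at E8.5 by 1.05 (SE 0.32, adjusted p 0.0428), a difference called for 4.33% of all genes in that direction, 5.77% in the other and 10.1% in either. Its call was lost in 16 of 29 alternatives, 9 of them single arrays left out. In KO tissue Arid4b was 0.93 lower at E8.5 than at E8.0, as a difference of -0.93 (SE 0.24, adjusted p 0.0374), and without E8.0 KO replicate 1 that difference was -0.77 (adjusted p 0.18). Of all genes, 2.19% were called lower in this contrast, 1.03% higher and 3.23% in either direction. Without E8.0 KO replicate 3 or E8.5 KO replicate 2 the difference did not pass either (adjusted p 0.0686 and 0.162).

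Markers of several tissues moved with Arid4b between these stages in KO tissue and others moved the other way, and their part was not tested. The trophoblast sum was 2576 to 4391 at E8.5 and 7583 to 12675 at E8.0, with 4 of 8 genes called lower. Epiblast genes summed to 5793 to 7634 at E8.5 and 9483 to 14490 at E8.0, with 3 of 6 called lower. The 14490 was on E8.0 KO replicate 1, and replicates 2 and 3 had 9566 and 9483. Heart muscle genes had 0 of 6 positive differences (median -2.23, none called) and endothelial genes 0 of 10 (median -0.66, 1 called lower). Neural progenitor genes had 8 of 10 positive (median 0.20, 1 called higher) and neuron markers 5 of 7 (median 0.17, 1 called higher). Primitive erythroid genes had 5 of 6 positive (median 0.11, none called). Surface ectoderm and epithelium genes had 7 of 11 (median 0.06, 1 called higher and 2 lower). Head mesenchyme and neural crest markers had 4 of 9 (median -0.16, none called).

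The second Arid4b probe on the array was detected on 0 of 25 arrays and was not kept. Arid4b is thus read from 1 probe. So is Dazap2.

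Markers of epiblast and pluripotency, of endothelium, of neural progenitors and of heart muscle were lower on balance where Arid4b was at E8.5. Surface ectoderm and epithelium, primitive erythroid and neuron markers were higher on balance, and the part of any list in the result was not tested. Trophoblast and placenta genes had 3 of 8 positive differences (median -0.23, none called). Head mesenchyme and neural crest markers had 3 of 9 positive (median -0.0021, none called). The 6 measured epiblast genes of 7 listed summed to 5793 to 7634 in KO and 9125 to 12716 in WT tissue, without overlap, and 2 to 3 of them were detected per array. At that stage 1 of 10 endothelial genes had a positive difference (median -0.41, 1 called lower) and 3 of 10 neural progenitor genes did (median -0.42, 1 called lower). Heart muscle genes had 1 of 6 positive (median -0.45, none called). Surface ectoderm and epithelium genes had 9 of 11 positive (median 0.44), primitive erythroid genes 5 of 6 (median 0.32) and neuron markers 4 of 7 (median 0.12). Of all genes, 2.44% were called lower. The DNA methyltransferase Dnmt3b, among the 6 epiblast genes, was called lower (-0.69, limma adjusted p 0.0309). At E7.5 the epiblast sums overlapped, at 19846 to 26398 in KO and 20628 to 22392 in WT embryos.

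The other 8 members had no called difference between KO and WT at any stage. By role they are a receptor of transforming growth factor beta (Tgfbr2), a small GTPase (Rhoc), a GTPase-activating protein (Arhgap29), an actin monomer-binding protein (Pfn2), a microtubule plus-end protein (Slain1), an antiproliferative protein of the BTG/Tob family (Tob2) and transcription factors (Nr2f2 and Klf13).

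**Figure D3:**
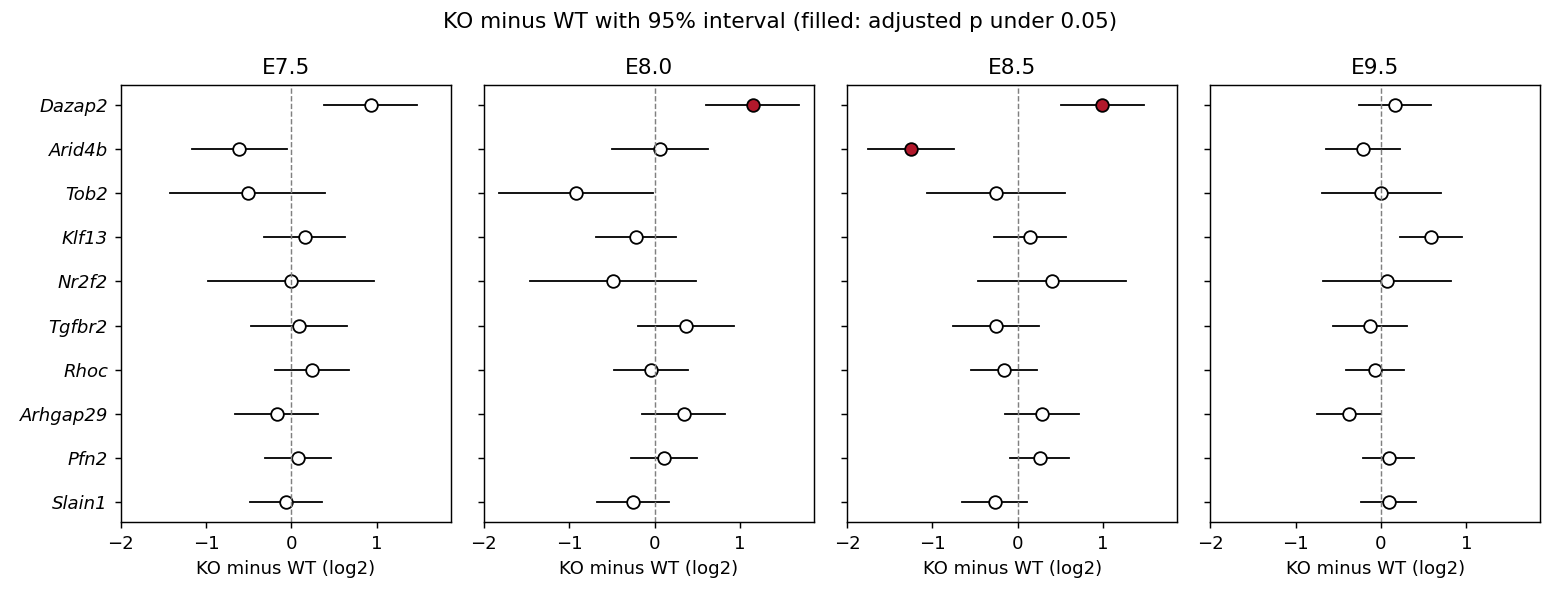
KO minus WT log2 difference (points) with its 95% interval (lines) for the 10 members at each stage. Filled points passed at an adjusted p under 0.05; they are Dazap2 at E8.0 (1.15) and E8.5 (0.99) and Arid4b at E8.5 (-1.25).

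Tgfbr2, the type II receptor that binds the transforming growth factor beta ligand, measured 9.46, 8.86 and 8.95 in KO tissue at E8.0, against 8.95 and 8.51 in WT tissue. The groups overlapped, and the difference of 0.37 had a 95% interval of -0.20 to 0.93 (limma adjusted p 0.459). At E9.5 it measured 8.76, 8.65, 9.21 and 8.34 in KO tissue, against 8.92, 8.84, 8.83 and 8.87 in WT tissue. The KO arrays spread on both sides of the WT arrays there.

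Averaged over the stages, the Tgfbr2 difference was 0.02, with an interval of -0.24 to 0.28. Among 19 measured genes of 25 listed TGF-beta superfamily receptors and Smads, 1 passed at E8.5, Skil, a repressor of Smad transcription, higher by 0.67 (adjusted p 0.016), where 3.16% of all genes were called higher. None passed at E7.5, E8.0 or E9.5. For the mean over stages Tgif1, a Smad corepressor, was lower by 0.70, as a difference of -0.70 (adjusted p 0.00844). Among all genes, 1.29% were called lower for that mean. The median difference of that list at E8.5 was 0.03, beside -0.03 for all genes.

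Rhoc, a small GTPase that acts on actin and cell motility, differed by -0.04 at E8.0, with an interval of -0.48 to 0.39, and by -0.16 at E8.5, with an interval of -0.55 to 0.23. Its values at E8.5 were 8.47, 8.48 and 8.38 in KO tissue, against 8.77, 8.44 and 8.61 in WT tissue, and overlapped. The second Rhoc probe, detected on 18 of 25 arrays, did not pass at any stage either.

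Arhgap29, a GTPase-activating protein, gave 10.72, 10.43 and 10.54 in KO tissue at E8.0, against 10.11 and 10.33 in WT tissue. The KO arrays lay above the WT arrays, but the difference of 0.34 (SE 0.23) did not pass (limma adjusted p 0.417). Under the other identities of the WT arrays the WT values became 10.33 and 10.68 and the groups overlapped. At E9.5 it gave 10.17, 10.19, 10.74 and 9.80 in KO tissue, against 10.82, 10.36, 10.50 and 10.71 in WT tissue, a difference of -0.37 (adjusted p 0.288).

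Pfn2, the profilin found mainly in neural tissue, was measured by 3 probes, all kept. Its representative probe read 11.10, 11.41 and 11.17 in KO tissue at E8.5, against 10.63, 11.01 and 11.26 in WT tissue, a difference of 0.26 with an interval of -0.09 to 0.60 (limma adjusted p 0.364). Another probe, also detected on all 25 arrays, gave 0.44 (SE 0.20, adjusted p 0.204 over all kept probes). The third was detected on 4 arrays. None of the 3 probes passed at any stage.

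Among 20 measured genes of 25 listed for profilin partners and actin assembly, 2 passed at E8.0, both higher in KO, where 1.17% of all genes were called higher: Evl, an Ena/VASP protein that promotes actin filament growth (1.16, limma adjusted p 0.0376), and Actr3, a subunit of the Arp2/3 complex (0.74, adjusted p 0.0481). At E8.5 Pfn4, a profilin best known from testis, was higher by 1.27 (adjusted p 0.00589), where 3.16% of all genes were called higher. The medians of the list, -0.08 at E8.0 and -0.15 at E8.5, had the opposite sign to these genes.

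Tob2, which recruits the CCR4-NOT deadenylase to messages, read 5.07, 7.08 and 7.08 in KO tissue at E8.0, against 7.496 and 7.17 in WT tissue. Each KO array lay below both WT arrays, and KO replicate 1, the array that stood apart, lay furthest. Tob2 was not detected on that array, whose lowest detected log2 value was 6.10. The difference was -0.92 (SE 0.43, limma adjusted p 0.244), and without that array -0.25 (adjusted p 0.739). At E9.5 it was 0.01, with an interval of -0.69 to 0.71.

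None of 14 measured genes of 18 listed for the BTG/Tob family and deadenylation passed at any stage. Their median difference was -0.12 at E7.5, -0.10 at E8.0, -0.18 at E8.5 and -0.02 at E9.5.

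Nr2f2, an orphan nuclear receptor of mesenchyme, veins and forebrain, was detected on 0 of 5 arrays at E7.5. At E8.0 it read 4.92, 6.57 and 7.19 in KO tissue, against 7.20 and 6.23 in WT tissue. The lowest value was again on KO replicate 1, where Nr2f2 was not detected. At E8.5 it read 7.94, 7.27 and 7.12 in KO tissue, against 7.45, 7.42 and 6.26 in WT tissue. Both stages overlapped. The intervals were wide, from -1.46 to 0.48 at E8.0 and from -0.47 to 1.27 at E8.5.

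Klf13, a zinc finger factor that binds GC-rich promoters, came close to the threshold at E9.5. It read 9.40, 9.15, 9.42 and 8.84 in KO tissue, against 8.90, 8.80, 8.52 and 8.26 in WT tissue. One KO array lay within the WT range, and the other KO arrays lay above it. The difference was 0.59 (SE 0.18), with a limma adjusted p of 0.085; it passed in 5 of 24 alternatives, with adjusted p-values from 0.0127 to 0.359 over all of them.

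At the earlier stages Klf13 differed by 0.15 at E7.5, -0.22 at E8.0 and 0.14 at E8.5, none of them called. Under the other E8.0 WT identities the E8.0 WT values were 8.60 and 8.72, above the KO values of 8.01 to 8.25. Among 18 measured genes of 23 listed Nr2 receptors and Klf or Sp factors, 2 passed at E9.5, both higher in KO, where 1.55% of all genes were called higher: the orphan receptor Nr2f6 (0.74, limma adjusted p 0.00767) and Sp5, a target of Wnt signalling (0.70, adjusted p 0.0353). None passed at the other stages.

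Slain1 is a partner of microtubule plus-end proteins. It was detected on 4 of 25 arrays, 2 of the KO and 2 of the WT arrays at E9.5, and had no level above background before that stage in either genotype. Its E9.5 values were 5.83, 5.29, 5.26 and 5.87 in KO tissue, against 5.20, 5.61, 5.70 and 5.38 in WT tissue, which overlapped (difference 0.09, interval -0.24 to 0.42). None of 8 measured plus-end factors of 11 listed passed in any KO minus WT comparison at a single stage.

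For the Sin3 complex to which Arid4b belongs, 11 of 15 listed genes were measured, and 1 passed, at E8.0, where 0.507% of all genes were called lower. It was Ing1, a reader of methylated histone H3, lower in KO (-0.60, limma adjusted p 0.0391). At E8.5, where Arid4b fell, 0 of the 11 passed, and their median was -0.18 beside -0.03 for all genes.

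**Figure D4:**
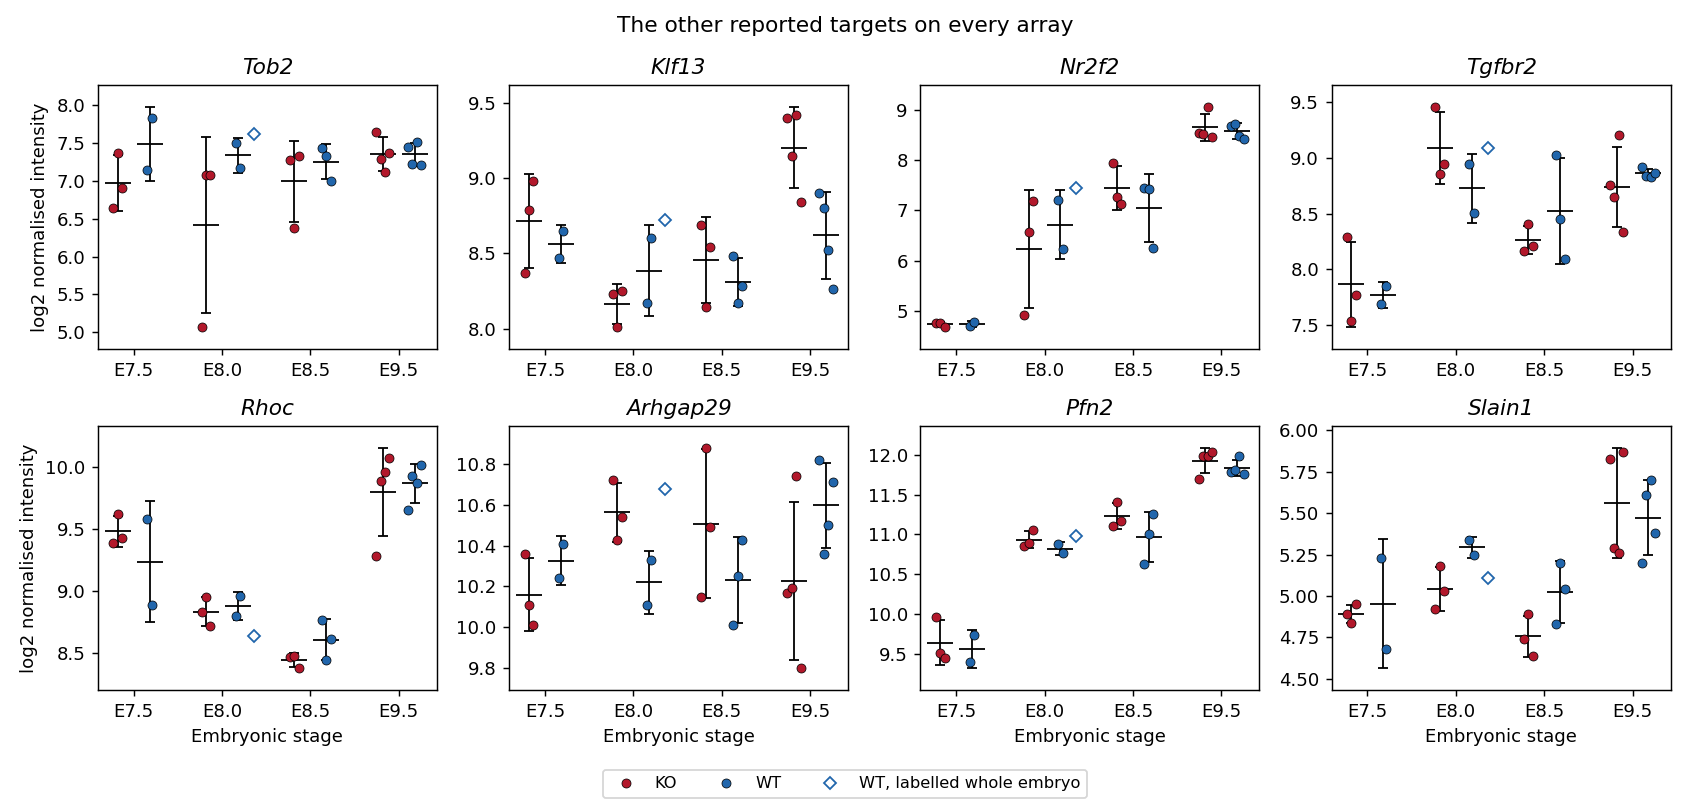
Log2 normalised intensity of the 8 members with no called KO minus WT difference, on every array by stage, with KO arrays (red) left of WT arrays (blue), group means (horizontal bars) and SD (error bars). The low red points of Tob2 (5.07) and Nr2f2 (4.92) at E8.0 are the same array, KO replicate 1, on which neither was detected. KO points of Klf13 at E9.5 reach 9.42 against a highest WT value of 8.90.

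Of 14 further reported targets of the seed family that were listed beside the 10 members, 9 were measured. Casp2, a protease of cell death, passed at E8.0 (0.66, limma adjusted p 0.0376) and E8.5 (0.56, adjusted p 0.0255), higher in KO at both. Bcl2l11, which promotes apoptosis, was lower at E8.5 (-0.81, adjusted p 0.0166). E2f1, a factor for S phase entry, was higher at E9.5 (0.68, adjusted p 0.041). Of all genes, 1.17% were called higher at E8.0, 3.16% higher and 2.44% lower at E8.5, and 1.55% higher at E9.5.

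Over the mean of the stages, 3 of these 9 genes were higher in KO, Casp2, Irf2 and Ei24, and 1 was lower, Bcl2l11, where 2.11% of all genes were called higher and 1.29% lower. The log2 differences were 0.37 for Casp2, 0.41 for Irf2, an interferon regulatory factor, 0.53 for Ei24, a protein induced by p53, and -0.43 for Bcl2l11. The median of the 9 was 0.29, beside 0.0039 for all genes and 0.0063 for the 10 members.

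The members were also compared between stages within a genotype, where the E9.5 arrays also differ in plate. Slain1 was detected only at E9.5, on 4 arrays, and passed the filter through them alone, so its calls here are set aside. In KO neural tissue Dazap2, Rhoc, Nr2f2, Pfn2, Arid4b and Klf13 were called higher at E9.5 than at E8.5. There 15.5% of all genes were called higher, 18.6% lower and 34.1% in either direction. In WT neural tissue Dazap2, Rhoc, Nr2f2 and Pfn2 were called higher, against 18.9% of all genes higher, 22.9% lower and 41.9% in either direction. No member was called lower in either genotype.

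Rhoc was 1.35 higher at E9.5 than at E8.5 in KO tissue (SE 0.17, limma adjusted p 1.4e-05) and 1.26 higher in WT tissue (SE 0.17, adjusted p 1.3e-05). Dazap2 was 0.99 higher in KO tissue (adjusted p 0.00175) and 1.83 higher in WT tissue (adjusted p 2.6e-06). The second Rhoc probe was 0.52 higher in KO and 0.57 higher in WT tissue without passing (adjusted p 0.205 and 0.149 over all kept probes), and at E8.5 it was detected on 1 of 3 arrays in each genotype. For Dazap2 and the representative Rhoc probe, every E9.5 array lay above every E8.5 array of its genotype.

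Nr2f2 was 1.21 higher in KO tissue (limma adjusted p 0.0218) and 1.54 higher in WT tissue (adjusted p 0.00338). The KO call was lost without E8.5 KO replicate 2, E8.5 KO replicate 3 or E9.5 KO replicate 3 (adjusted p 0.0697, 0.0889 and 0.0625). Its second kept probe was detected on all 8 arrays at E9.5 and on none before, so no difference is given for it. Pfn2 was 0.70 higher in KO tissue (adjusted p 0.00176) and 0.87 higher in WT tissue (adjusted p 0.000159), and its dimmest probe, detected on 4 arrays, did not pass in either.

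Arid4b was 1.58 higher at E9.5 in KO tissue (SE 0.22, limma adjusted p 3.8e-05), against 0.53 in WT tissue (SE 0.22, adjusted p 0.0628). Klf13 was 0.75 higher in KO tissue (adjusted p 0.00493), against 0.31 in WT tissue (adjusted p 0.204), and the difference between the genotypes for Klf13 did not pass (0.44, adjusted p 0.304).

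Slain1 had E9.5 means of 5.56 in KO and 5.47 in WT tissue. Its E8.5 means of 4.75 in KO and 5.02 in WT tissue were not above background, and its bound against the background was under 1, so neither a fold nor a change is read for it.

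Other tissues' markers also differed between these stages. The summed intensity of 6 measured primitive erythroid genes of 8 listed was 87436 to 100250 at E9.5 and 37906 to 55977 at E8.5 in KO tissue. In WT tissue it was 95165 to 104294 at E9.5 and 16940 to 57052 at E8.5. The 10 measured neural progenitor genes of 12 listed summed to 9449 to 10927 at E9.5 and 3766 to 4606 at E8.5 in KO tissue, and to 6526 to 8167 at E9.5 and 4326 to 5055 at E8.5 in WT tissue. In WT tissue 4 of these 10 genes had a positive difference, with 3 called higher, 2 lower and a median of -0.17, so the sum and most of the list went opposite ways. Neuron markers had 5 of 7 called higher in both genotypes, with medians of 1.31 in KO and 1.13 in WT tissue. Head mesenchyme and neural crest markers had 5 of 9 called higher in both, with medians of 0.95 in KO and 0.70 in WT tissue. Endothelial markers had 5 of 10 called higher in KO and 4 in WT tissue, where 1 was lower, with medians of 0.86 and 0.72. Of all genes, 15.5% were called higher and 18.6% lower in KO tissue, and 18.9% higher and 22.9% lower in WT tissue. The part of any of these lists in the stage differences was not tested.

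Between E8.5 and E8.0 in WT neural tissue 0 of 10 members passed the limma test, 0 had an unadjusted p under 0.05, and 0.039% of all genes were called. In KO tissue Tgfbr2 was lower by 0.83 at E8.5, as a difference of -0.83 (SE 0.24, adjusted p 0.0652), without reaching the threshold, with 8.17, 8.41 and 8.21 at E8.5 against 9.46, 8.86 and 8.95 at E8.0.

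Across the 8 group means, the genes whose pattern was most like that of Dazap2 were Zbed4 (Pearson correlation 0.988), Rpl35a (0.986) and Med28 (0.986). For Arid4b they were Tjp3 (0.939), Pcgf2 (0.933) and Prkdc (0.922). These are descriptions over 8 points that share stage and plate.

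**Figure D5:**
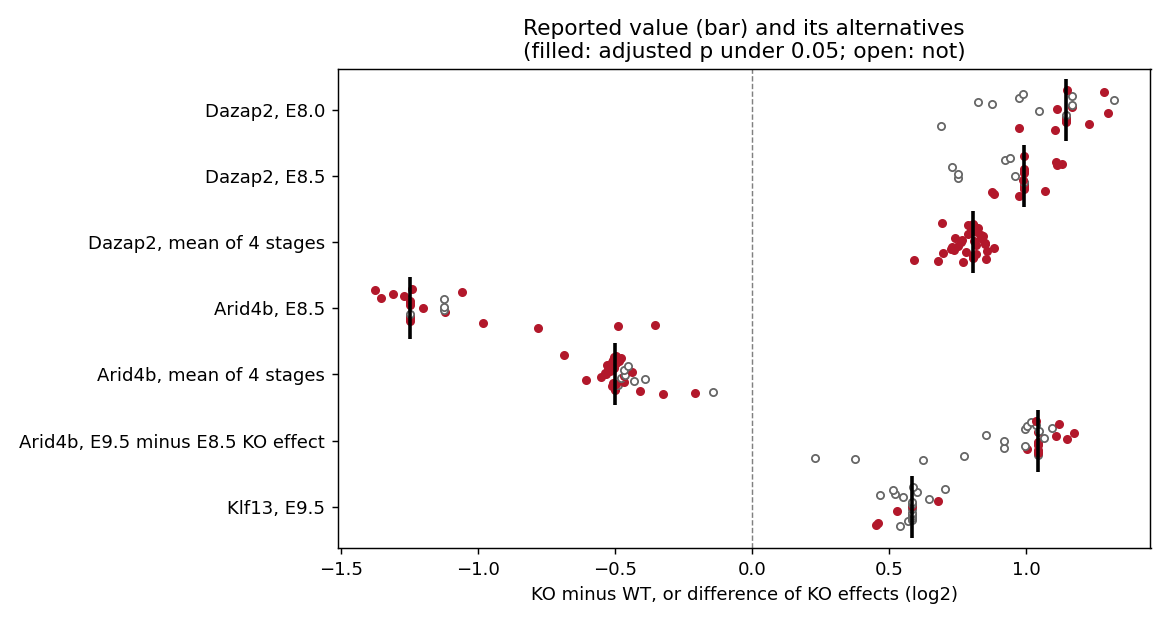
Log2 value of 7 results of Dazap2, Arid4b and Klf13 as reported (black bars) and under each alternative processing or left-out array (points, filled where the adjusted p was under 0.05). All points of the Dazap2 mean over 4 stages are filled, from 0.59 to 0.88, and every point lies on the same side of 0 as its bar.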

How the data were processed

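The deposited raw table holds, per the file headers, an average signal (an intensity on a linear scale, not normalized) and a detection p-value per probe and array. The deposited series matrix holds intensity values processed by the authors, linear by their match to the signals, with one distribution on the E7.5 to E8.5 arrays (median 124) and another on the E9.5 arrays (median 153); their method is not stated in these sources. Signals were processed with neqc of limma 3.58.1 in R 4.3.3 (normexp background fitted through the detection p-values, offset 16, quantile normalization, log2), so the log2 values come from the deposited signals. The offset shrinks differences of dim probes. Detection p-values of the 3 E8.0 WT arrays were re-paired with the signals they rank alike.

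Probes were named by the platform annotation and kept with a detection p-value below 0.05 on 3 or more arrays; a gene is its kept probe with the highest mean. A model of 9 groups over 25 arrays was fitted with lmFit and eBayes (16 residual degrees of freedom). Tests are two-sided, with p-values adjusted by Benjamini-Hochberg over 10261 genes, and called under 0.05; limma gave every adjusted p. The number of arrays limits the precision.

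The members and gene lists were chosen with earlier results of these data known. Every member is described; of the pathway lists, genes that passed are named, up to 4 per comparison. One further list is not reported here. Alternatives covered background, normalization, filter, probe rule, weights, plate, replicate number as a block, E8.0 WT identities and each array left out. Of 11 pairs with the same replicate number, 1 correlated above 0.1 in deviations from the group mean. This check cannot decide whether the numbers pair the embryos. With 2 WT arrays at E7.5 and at E8.0, the deviations of those arrays mirror each other.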

Additional observations from a re-analysis of the deposited data

Results flagged for a closer look

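Values of 3 genes lay far from the rest of their group of 4 arrays, by the gap to the nearest array over the whole range. Dazap2 was 11.47 on E9.5 WT replicate 1, above 11.19 to 11.24 on the other WT arrays; without it the E9.5 KO minus WT difference was 0.22 (limma adjusted p 0.638). Nr2f2 was 9.06 on E9.5 KO replicate 3, above 8.47 to 8.55 on the other KO arrays. Pfn2 was 11.69 on E9.5 KO replicate 1, below 11.99 to 12.04 on the others. Such gaps were looked for in 20 sets of values, each a member in the E9.5 KO or E9.5 WT group, and chance marks about 1 in 20. The groups of earlier stages have fewer than 4 arrays and were not examined.

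The Arid4b knockout effect differed between E9.5 and E8.5 by 1.05 on the log2 scale (limma adjusted p 0.0428), with an effect of -0.20 at E9.5 and -1.25 at E8.5.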

How the results depend on the processing

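Of 100 member results (10 genes in 10 comparisons), 19 passed as reported. Slain1 is counted in these and in the member counts below, although its calls between E9.5 and E8.5 are set aside above. Over 2210 alternative values, 2133 kept their side of the threshold, 66 lost it, 11 gained it and none of the passing results turned its sign; 33 of the 81 results that did not pass had another sign in some alternative. The cause of the changes below was not tested, except that leaving out arrays or fitting a stage alone leaves fewer samples. As reported, limma called 23 genes at E7.5, 172 at E8.0, 574 at E8.5, 229 at E9.5, 348 for the mean over stages, 1036 for the E9.5 minus E8.5 knockout effect, 331 and 3504 between E8.5 and E8.0 and between E9.5 and E8.5 in KO tissue, and 4 and 4295 for the same contrasts in WT tissue.

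With the background left in, there were 9 genes at E7.5, 355 at E9.5 (1 member) and 0 for WT E8.5 minus E8.0, and no member passed for the knockout effect's change or KO E8.5 minus E8.0 (0 and 0). An offset of 50 gave 14 at E7.5, 2 for WT E8.5 minus E8.0 and again 0 members in those contrasts. The authors' processed values gave 6 genes at E7.5, 16 at E8.0 (0 members), 610 at E9.5 (1 member), and 1 member for the mean and 0 for the effect's change. Normalizing E9.5 alone gave 10 genes at E7.5, 489 at E9.5 and 0 members for the effect's change, and no detection filter gave 44 at E7.5, 8 for WT E8.5 minus E8.0 and 0 such members. Each stage fitted alone gave 0 genes at E7.5, 0 at E8.0 and 0 at E8.5, with 0 members, and 438 at E9.5. Array weights gave 7 genes at E7.5, 662 at E8.0, 1170 at E8.5, 1583 at E9.5 (1 member), 639 for the mean, 1940 for the effect's change (2 members), 573 for KO E8.5 minus E8.0 (0 members) and 29 for the WT contrast. Every kept probe on its own gave 261 at E8.0, and the mean over E7.5, E8.5 and E9.5 gave 121.

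Plate as a covariate gave 54 genes at E8.0 (0 members), 99 at E8.5 (0 members), 375 at E9.5, 187 for the mean (1 member) and 222 for the effect's change (0 members). Plate as a random block (correlation 0.247) gave 223 at E8.5 (1 member) and 0 members for the effect's change, and arrays of 1 plate gave 169 at E8.5 (0 members). The other E8.0 WT identities gave 16 genes at E8.0 (0 members), 1 member for the mean and 0 genes for WT E8.5 minus E8.0, and adding the whole-embryo array gave 31 at E8.0 (0 members). These identities for WT E8.5 minus E8.0, the mean over E7.5, E8.5 and E9.5, and detection p-values paired as deposited were chosen after seeing the data; the last moved no count by over 1.5 times.

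The replicate number was also used as a block, although whether it pairs embryos is not known. It gave 14 genes at E7.5, 0 at E8.0 (0 members), 148 at E9.5 (1 member), 212 for the mean and 621 for the effect's change (2 members). In KO tissue it gave 0 for E8.5 minus E8.0 (0 members) and 1450 for E9.5 minus E8.5 (4 members). In WT tissue it gave 0 and 2842 for the same contrasts. Under this block Dazap2 at E8.0 was 1.17 (adjusted p 0.0643). Deviations of the 11 same-numbered pairs correlated at -0.13 to 0.16.

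Leaving out each array in turn gave 11 to 58 genes at E7.5, 0 to 686 at E8.0 (0 to 1 members), 95 to 734 at E8.5 (0 to 2), 63 to 482 at E9.5 (0 to 1), 165 to 602 for the mean (1 to 2), 407 to 1292 for the effect's change (0 to 1), 124 to 632 for KO E8.5 minus E8.0 (0 to 1), 2721 to 3182 for KO E9.5 minus E8.5 (6 to 7), 0 to 4 for WT E8.5 minus E8.0 and 3560 to 4220 for WT E9.5 minus E8.5 (4 to 5). Where an arm was left with 1 array, it was assumed to vary like the other groups.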
